A study of Mus musculus with 6 samples.

Results

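The 10 genes described here are a fixed set of mitotic genes, the proliferation marker Mki67, the topoisomerase gene Top2a, the cyclin genes Ccna2, Ccnb1 and Ccnb2, the kinase genes Cdk1, Aurkb and Plk1, the survivin gene Birc5 and Cdc20. They were chosen by name from the 23505 gene rows of the counts table, and all 10 were among the 10509 genes with enough counts to be tested. RNA was sequenced from liver CD4+ T cells of wild type mice in 2 groups, ConA+SIM and ConA, with 3 samples in each. All mice received concanavalin A (ConA), a lectin that activates T cells and leads to hepatitis. The ConA+SIM mice were gavaged with simvastatin, a statin that inhibits HMG-CoA reductase, at 30 mg/kg on each of the 5 days before ConA, 1 h before it and 24 h after it. The ConA mice were gavaged with phosphate-buffered saline on the same schedule. Both groups carry the lectin injury, and no sample of uninjured liver is part of this comparison. Cells were gated as CD3+ NK1.1- CD4+ CD8-. The sources used here give no strain, age, sex or ConA dose, and do not say whether a sample pools several mice. The p-values therefore set the difference between groups against the spread of the 3 samples within each, estimated with information shared across genes. That spread may be technical.

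Mitosis begins when cyclin-dependent kinase 1, bound to cyclin A2 and the B cyclins, phosphorylates its substrates, and Polo-like kinase 1 and Aurora kinase B then act on centrosomes, kinetochores and the cleavage furrow. It ends when the anaphase-promoting complex, activated by Cdc20, marks securin and the B cyclins for destruction. Genes for these proteins are silent in resting T cells and are transcribed together in late S, G2 and M phase, under B-Myb, FoxM1 and the MuvB complex, so their transcripts are widely used to follow clonal expansion. In RNA from a bulk sort, fewer cycling cells and less transcript per cycling cell cannot be told apart.

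The 10 genes did not share a direction. In the ConA+SIM samples 7 of them had lower and 3 had higher mean values, with a median log2 fold change of -0.26, against -0.04 over all tested genes, of which 52% were lower. Without ConA+SIM replicate 2 the members' median was 0.053. None of the 10 passed the edgeR quasi-likelihood test at an adjusted p under 0.05, where 0.542% of tested genes did, all of them higher in ConA+SIM and 0 lower. At an unadjusted p under 0.05 there were 2 members, Plk1 and Mki67, both lower, against 3.54% of tested genes that were lower at that limit. DESeq2 called 1 member, Plk1, as lower, where it called 1.86% of genes lower, and limma-voom with and without quality weights called 0. The groups did not overlap in 2 members, again Plk1 and Mki67, both lower in ConA+SIM, and such separation toward lower values was seen in 8.57% of tested genes.

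The libraries held 17549429 to 20441213 counts in ConA+SIM and 18360352 to 25031862 in ConA. Cd3g, a chain of the T cell receptor complex, averaged 885 ± 104 CPM in ConA+SIM and 569 ± 118 CPM in ConA, and Cd4 averaged 491 ± 63.3 CPM in ConA+SIM and 599 ± 148 CPM in ConA (SD, n = 3 each). CPM is the read count scaled to a common library size after TMM normalization. Although the gate took CD8- cells, Cd8b1 was at 21.8 to 54.1 CPM in ConA+SIM and 4.64 to 33.1 CPM in ConA, whereas Cd8a was at most 15.9 CPM. The NK cell receptor genes Ncr1 and Klra8 were at 0 counts in all 6 libraries. They were the only 2 of 12 listed NK cell genes without counts, and 8 of the 12 were tested. ConA+SIM replicate 2 stood apart, with no count in 18.4% of tested genes, where the other libraries lacked 2.76% to 9.98%. Macrophage and monocyte genes were also present, led by Lyz2 at 173 to 885 CPM in ConA+SIM and 565 to 1596 CPM in ConA. The 15 genes of that list, all detected, summed to 2352, 1067 and 2732 CPM in ConA+SIM replicates 1 to 3 and to 3610, 1811 and 1705 CPM in ConA replicates 1 to 3. Of the 12 tested, 2 were higher and 10 lower with simvastatin, with 0 called and a median log2 fold change of -1.05. The macrophage sums overlapped between the groups, whereas the sums of the erythroid and neutrophil lists were higher in ConA+SIM without overlap. The summed erythroid level was 580 to 643 CPM in ConA+SIM and 182 to 329 CPM in ConA, with 6 of 6 tested genes higher (median log2 fold change 1.52), 1 of them, the globin gene Hbb-bs, called higher and the erythroid transcription factor gene Klf1 at 0. Tfrc, the most abundant gene of that list, had 319, 237 and 398 CPM in ConA+SIM, against 113, 237 and 138 CPM in ConA. The groups overlapped in Tfrc. The summed neutrophil level was 583 to 940 CPM in ConA+SIM and 304 to 485 CPM in ConA, with 3 tested genes higher and 3 lower (median 0.06), 0 called and Ly6g at 0. S100a9 alone had 456, 300 and 486 CPM in ConA+SIM, against 198, 215 and 128 CPM in ConA. Summed T cell markers were at 4768 to 5436 CPM in ConA+SIM and 3400 to 5518 CPM in ConA, and NK cell markers at 733 to 1056 CPM in ConA+SIM and 632 to 841 CPM in ConA, with 7 of 8 tested NK cell genes higher in ConA+SIM (median 0.36). The most abundant gene of the NK cell list was Gzmb, at 550, 316 and 588 CPM in ConA+SIM and 623, 252 and 544 CPM in ConA. B cell markers summed to 535 to 972 CPM in ConA+SIM and 114 to 1285 CPM in ConA, endothelial markers to 436 to 804 CPM in ConA+SIM and 414 to 2259 CPM in ConA, with 11 of 12 genes lower in ConA+SIM (median -0.77), and hepatocyte markers to 268 to 413 CPM in ConA+SIM and 169 to 384 CPM in ConA. None of the T cell, NK cell, B cell, endothelial and hepatocyte genes was called by edgeR. The part of these other cells in the values of the mitotic genes was not tested, apart from a macrophage covariate and a scaling by T cell markers.

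**Figure D1:**
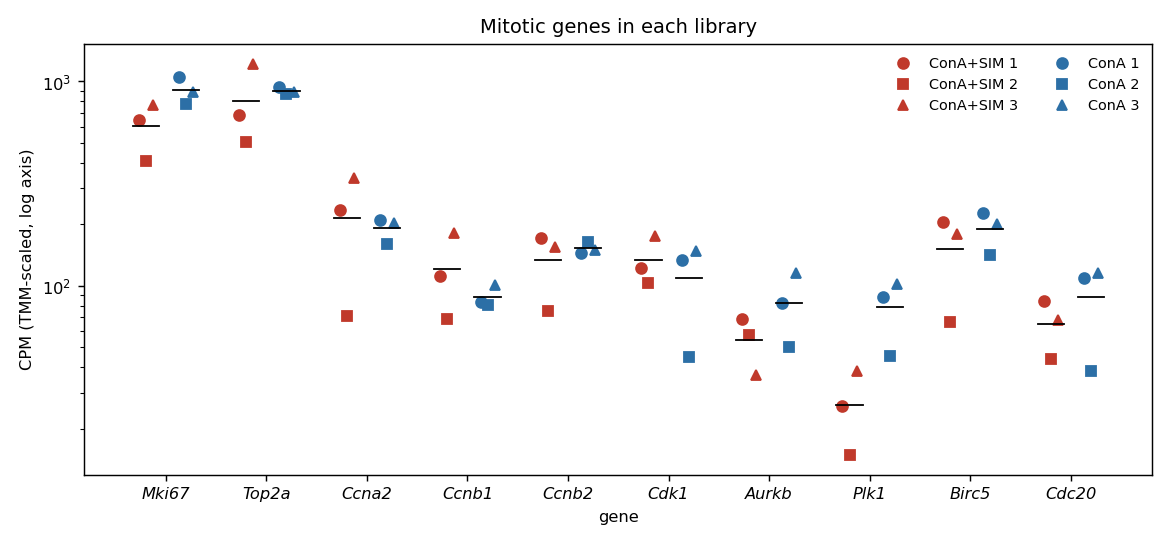
Level of each mitotic gene in each library, as TMM-scaled CPM on a log axis, with ConA+SIM left of ConA and a black line at each group's mean. The Plk1 and Mki67 values of ConA+SIM all lie below those of ConA, and the square of ConA+SIM replicate 2 is the lowest of the 6 in 7 of the 10 genes.

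Plk1 encodes Polo-like kinase 1, which drives mitotic entry, spindle assembly and cytokinesis (chromosome 7, 122159435 to 122169884, GRCm38). It had 25.7, 14.8 and 38.2 CPM in ConA+SIM replicates 1 to 3, against 88.2, 45.5 and 103 CPM in ConA replicates 1 to 3. The highest ConA+SIM value was below the lowest ConA value, and replicate 2 was the lowest of each group. These values rested on 254 to 714 counts per library in ConA+SIM and 903 to 2608 in ConA. The log2 fold change was -1.59 ± 0.55 (SE), or 0.333-fold with a 95% interval from 0.142 to 0.782, at an unadjusted p of 0.0171 and an adjusted p of 0.392 by edgeR. DESeq2 gave an adjusted p of 0.0445 for the same counts. Over 21 other ways of processing the log2 fold change ran from -1.96 to -1.30, with an adjusted p under 0.05 in DESeq2 alone, and without ConA+SIM replicate 2 it was -1.30. With the summed macrophage level as a covariate it was -1.54.

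Cdk1 encodes the kinase at the centre of mitotic entry (chromosome 10, 69335146 to 69352912). It had 122, 103 and 175 CPM in ConA+SIM, against 134, 44.7 and 147 CPM in ConA. The groups overlapped, and ConA replicate 2 was the lowest of the 6 libraries. The log2 fold change was 0.30 ± 0.46 (edgeR adjusted p = 0.999), with a 95% interval from -0.73 to 1.32, which spans both directions.

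Aurkb encodes Aurora kinase B, the catalytic subunit of the chromosomal passenger complex (chromosome 11, 69045624 to 69051664). It had 68.8, 57.7 and 36.4 CPM in ConA+SIM, against 82.5, 50.3 and 115 CPM in ConA. ConA+SIM replicate 3, which held the highest value of 4 other members, was the lowest library here. The log2 fold change was -0.61 ± 0.46 (adjusted p = 0.926), with a 95% interval from -1.63 to 0.42. Birc5, which encodes survivin, a targeting subunit of the same complex and a member of the inhibitor of apoptosis family (chromosome 11, 117849237 to 117855743), had 206, 66.2 and 180 CPM in ConA+SIM, against 228, 141 and 202 CPM in ConA. ConA+SIM replicate 2 was the lowest library, and the log2 fold change was -0.34 ± 0.42 with all libraries, 0.02 without that one and -1.01 ± 0.38 with length offsets (adjusted p = 0.571).

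Ccna2 encodes cyclin A2, which acts in both S phase and mitotic entry (chromosome 3, 36564865 to 36573038). It had 235, 71.3 and 338 CPM in ConA+SIM, against 211, 160 and 203 CPM in ConA. The highest and the lowest of the 6 values were both in ConA+SIM, and the log2 fold change was 0.17 ± 0.47 (adjusted p = 0.999). Its sign turned in 6 of 21 alternatives, which ran from -0.32 to 0.58.

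The B cyclins are the partners of Cdk1 whose destruction ends mitosis. Ccnb1 (chromosome 13, 100778739 to 100786486) had 112, 68.9 and 181 CPM in ConA+SIM, against 83.5, 80.9 and 101 CPM in ConA. Its log2 fold change of 0.45 ± 0.39 was the highest of the 10 genes and did not pass (adjusted p = 0.979). Ccnb2 (chromosome 9, 70407689 to 70421554) had 171, 75.5 and 155 CPM in ConA+SIM, against 144, 163 and 150 CPM in ConA. Its coefficient of variation was 38.2% in ConA+SIM and 6.39% in ConA, where the 3 values lay close together. The log2 fold change was -0.19 ± 0.34 with all libraries and 0.10 without ConA+SIM replicate 2.

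Cdc20, the activator that lets the anaphase-promoting complex degrade securin and the B cyclins (chromosome 4, 118432901 to 118437343), had 84.2, 43.9 and 67.8 CPM in ConA+SIM, against 110, 38.1 and 116 CPM in ConA. In both groups replicate 2 was the lowest. Its log2 fold change was -0.43 ± 0.49 (adjusted p = 0.999).

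Mki67 encodes Ki-67, a surfactant of mitotic chromosomes that is used as the standard marker of cycling cells (chromosome 7, 135689784 to 135716450). It had 651, 406 and 767 CPM in ConA+SIM, against 1049, 777 and 892 CPM in ConA. The groups did not overlap, although the highest ConA+SIM value, in replicate 3, lay just below the lowest ConA value, in replicate 2. On the log2 scale the fold change was -0.58 ± 0.25, with a 95% interval from -1.14 to -0.01, an unadjusted p of 0.0459 and an adjusted p of 0.552 (edgeR). It was -0.35 without ConA+SIM replicate 2. Mki67 has the longest transcript of the 10 genes, 10061 nt, and with each library's trend over transcript length removed the log2 fold change was -0.18.

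Top2a encodes DNA topoisomerase II alpha, which untangles sister chromatids (chromosome 11, 98992947 to 99024199). It had 688, 506 and 1223 CPM in ConA+SIM, against 944, 867 and 891 CPM in ConA. The ConA+SIM values had a coefficient of variation of 46.3% and spread to both sides of the ConA values, which had one of 4.39%. Its log2 fold change was -0.16 ± 0.29 (adjusted p = 0.999) with an interval from -0.82 to 0.50. In 7 of the 10 genes the coefficient of variation was larger in ConA+SIM than in ConA, and Cdk1, Aurkb and Cdc20 were the exceptions. The share over all tested genes was not computed, so this count cannot be read as a trait of the mitotic genes.

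**Figure D2:**
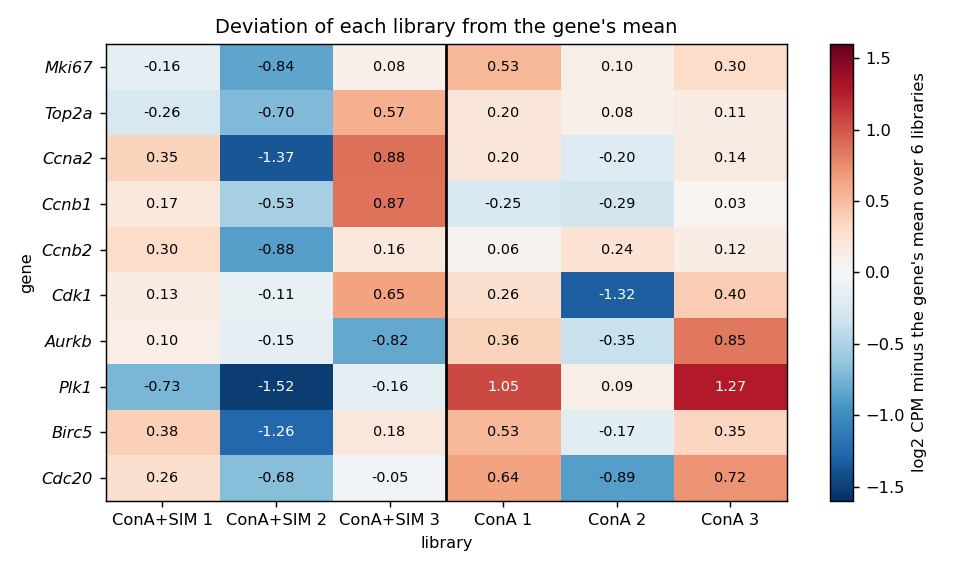
Heat map of the log2 CPM of each mitotic gene in each library minus the gene's mean over the 6 libraries, with ConA+SIM to the left of the black line and ConA to its right. ConA+SIM replicate 2 is below the mean in every row, ConA+SIM replicate 3 runs from -0.82 in Aurkb to 0.88 in Ccna2, and Plk1 is below its mean in all 3 ConA+SIM libraries.

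Read by library, ConA+SIM replicate 2 held the lowest value of 7 genes, ConA replicate 2 that of Cdk1 and Cdc20, and ConA+SIM replicate 3 that of Aurkb. The highest values were in ConA+SIM replicate 3 for 4 genes, in ConA replicate 3 for 3, in ConA replicate 1 for 2 and in ConA+SIM replicate 1 for 1. The 10 genes together took 0.216%, 0.138% and 0.295% of all counts in ConA+SIM replicates 1 to 3, and 0.326%, 0.256% and 0.297% in ConA replicates 1 to 3. Across the 6 libraries the Pearson correlation of log2 CPM between members had a median of 0.56 over 45 pairs and ran from -0.41, between Ccnb1 and Aurkb, to 0.93, between Mki67 and Plk1. Each of these rests on 6 libraries, and within a library both genes of a pair share its depth and scaling. Of 8505 tested genes outside the members and the cell cycle lists with a mean of at least 10 CPM, those most like the members' mean pattern were Acot13, Heatr6, Gen1, Sec13 and Stom, with Pearson correlations from 0.984 to 0.995. Acot13, Heatr6 and Gen1 had 0 counts in ConA+SIM replicate 2.

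Per kilobase of transcript, Birc5 and Top2a were the most abundant members, at 159 ± 78.4 and 154 ± 71.4 CPM per kb in ConA+SIM and at 201 ± 47.0 and 173 ± 7.58 CPM per kb in ConA (SD, n = 3 each). These levels held the first and second rank in every library, in either order, and did not differ beyond their spread. Ccnb2 followed at 87.4 ± 33.3 CPM per kb in ConA+SIM and 99.7 ± 6.37 in ConA, and Mki67 at 60.4 ± 18.3 in ConA+SIM and 90.1 ± 13.6 in ConA. Ccna2 was close to Mki67, at 72.5 ± 45.4 CPM per kb in ConA+SIM and 64.6 ± 9.23 in ConA. The end of the order differed between groups. Plk1 was last of the 10 in all 3 ConA+SIM libraries, at 11.9 ± 5.31 CPM per kb, and Cdk1 was last in all 3 ConA libraries, at 24.8 ± 12.8, where Plk1 stood at 35.8 ± 13.5 and ranked 8, 9 and 8. The order between genes rests on 1 transcript length for each, 4375 nt for Cdk1 and 2199 nt for Plk1. Other transcripts were not tried, and a shorter one would raise a gene's level per kilobase.

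**Figure D3:**
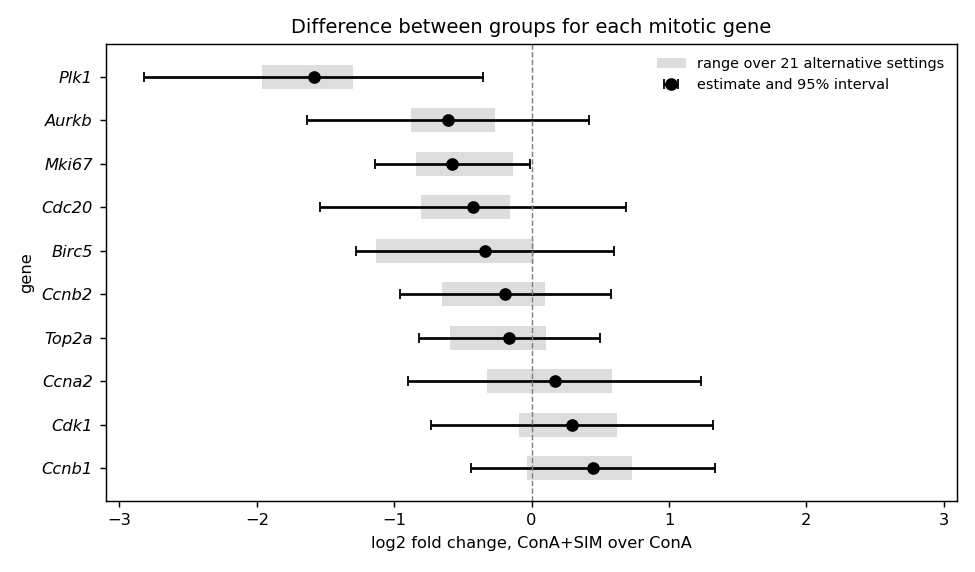
Log2 fold change of ConA+SIM over ConA for each mitotic gene, as a point with its 95% interval from the edgeR fit, and in grey the range over 21 alternative settings. The intervals of Plk1 and Mki67 lie below 0, and those of the other 8 genes span it.

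Since a ratio between 2 genes of the same library does not depend on its depth or scaling, Plk1 was also set against each of the other 9 members. Plk1 was singled out after its values were seen, and these ratios are a description. Plk1 transcripts were 0.230, 0.215 and 0.210 times those of Ccnb1 in ConA+SIM, against 1.06, 0.562 and 1.02 times in ConA. Relative to Cdk1 they were 0.211, 0.144 and 0.218 in ConA+SIM, against 0.659, 1.02 and 0.696 in ConA. Relative to Top2a the ratios were 0.0373, 0.0293 and 0.0312 in ConA+SIM and 0.0934, 0.0524 and 0.115 in ConA. The ConA+SIM ratios lay below all ConA ratios for 8 of the 9 partners, that is for Mki67, Top2a, Ccna2, Ccnb1, Ccnb2, Cdk1, Birc5 and Cdc20. Aurkb was the exception, because in ConA+SIM replicate 3 the ratio of Plk1 to Aurkb was 1.05, against 0.889 to 1.07 in ConA. When Plk1 was set against all 8668 other tested genes with a mean of at least 10 CPM, 44.8% of the ratios separated in this direction and 0.0461% in the other.

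Over all 45 pairs of members 13 ratios separated the groups, where 16.9% of pairs of tested genes with a mean of at least 10 CPM did. Plk1 was in 8 of the 13. The other 5 were Mki67 to Ccnb1, Mki67 to Cdk1, Top2a to Ccnb1, Cdk1 to Aurkb and Cdk1 to Cdc20. Mki67 was 5.83, 5.90 and 4.23 times Ccnb1 in ConA+SIM, against 12.6, 9.61 and 8.84 times in ConA. Cdk1 was 1.45, 2.35 and 2.58 times Cdc20 in ConA+SIM, against 1.22, 1.17 and 1.27 times in ConA.

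**Figure D4:**
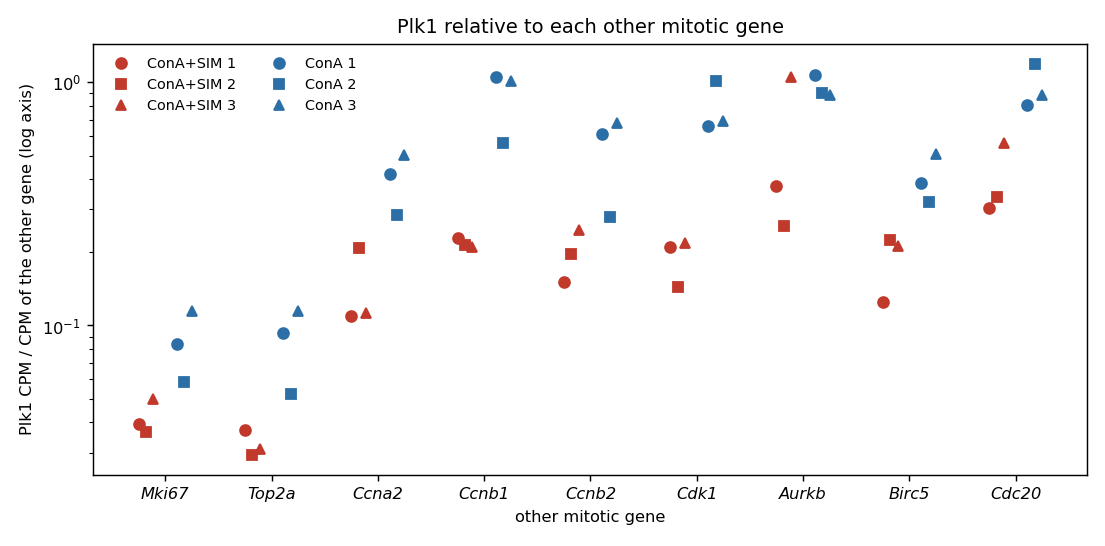
Ratio of Plk1 CPM to the CPM of each other mitotic gene in each library, on a log axis, with ConA+SIM left of ConA. ConA+SIM lies below ConA without overlap for 8 partners, and for Aurkb the triangle of ConA+SIM replicate 3 at 1.05 lies among the ConA points.

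Genes of this group are known for promoters that carry CCAAT boxes, bound by NF-Y, and a cell cycle genes homology region (CHR), bound by MuvB complexes. The promoters of Plk1 and Mki67, which had the lowest unadjusted p-values, are shown with those of Ccnb1 and Cdk1, which had the highest log2 fold changes. Each runs from 150 bases before to 30 after the start, 5′ to 3′ on the gene's strand, from RefSeq's GRCm38.p6 table. For Mki67, and for Top2a, which is not shown, the start used lies inside the gene span given above, and motif positions count from it. Capitals mark CCAAT or its reverse complement ATTGG, and TTTGAA or its reverse complement TTCAAA, the CHR letters.
Plk1 (chr7:122159285-122159464, plus strand): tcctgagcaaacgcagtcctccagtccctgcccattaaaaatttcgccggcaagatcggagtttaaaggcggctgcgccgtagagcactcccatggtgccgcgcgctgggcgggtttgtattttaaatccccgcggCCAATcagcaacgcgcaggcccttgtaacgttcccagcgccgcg
Mki67 (chr7:135716350-135716529, minus strand): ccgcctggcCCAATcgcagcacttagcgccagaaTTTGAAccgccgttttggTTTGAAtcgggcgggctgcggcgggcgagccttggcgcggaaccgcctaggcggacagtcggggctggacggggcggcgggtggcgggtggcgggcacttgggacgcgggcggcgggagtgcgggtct
Ccnb1 (chr13:100786457-100786636, minus strand): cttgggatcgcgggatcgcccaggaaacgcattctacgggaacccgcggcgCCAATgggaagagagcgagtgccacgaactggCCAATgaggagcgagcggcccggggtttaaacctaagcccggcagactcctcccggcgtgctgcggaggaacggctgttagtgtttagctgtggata
Cdk1 (chr10:69352883-69353062, minus strand): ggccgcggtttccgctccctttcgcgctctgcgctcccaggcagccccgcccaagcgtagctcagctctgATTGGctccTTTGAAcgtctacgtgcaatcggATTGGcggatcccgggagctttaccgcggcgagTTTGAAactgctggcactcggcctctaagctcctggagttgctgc
The table held a promoter for 8 of the 10 genes, all but Ccna2 and Aurkb. In the full window of 250 bases before to 50 after the start, CCAAT on either strand was found in 7 of these 8, against 37.4% of all 32851 promoters of that length. TTTGAA on either strand was found in 6 of 8, against 17.9%, and both motifs in 6 of 8, against 6.95%. Plk1 held TTTGAA at position 31 after its start, beyond the printed stretch, Ccnb1 held 2 CCAAT boxes and no TTTGAA, and Birc5 held neither in the window. Plk1 and Cdk1 were among the 6 with both motifs. Whether either motif bears on the differences between groups was not tested.

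Among 158 tested genes of 5 further cell cycle lists, 74 lay higher and 84 lower in the ConA+SIM samples, with a median log2 fold change of -0.08. By edgeR 1 of these 158 genes was called higher, Pcna, the sliding clamp of DNA replication, and 0 were called lower. Over all tested genes 0.542% were called higher and 0 lower. Pcna had 938, 899 and 826 CPM in ConA+SIM, against 450, 362 and 455 CPM in ConA, a log2 fold change of 1.07 ± 0.18 (adjusted p = 0.0413). Leaving out any 1 of the 6 libraries ended the call, with adjusted p-values of 0.125 to 0.268, and with length and GC offsets the log2 fold change was 0.36.

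The list of entry and exit regulators, 31 tested genes, had a median log2 fold change of -0.20, with 13 higher, 18 lower and 0 called by edgeR. DESeq2 called 3 of them, Cks2 as higher (adjusted p = 0.00558) and Cdc25b (adjusted p = 0.0121) and Anapc1 (adjusted p = 0.0488) as lower. Among all genes it called 3.35% higher and 1.86% lower. By the edgeR fit, Cks2, a small subunit that docks substrates to Cdk1, had 124, 104 and 153 CPM in ConA+SIM, against 42.8, 42.6 and 64.0 CPM in ConA, without overlap (log2 fold change 1.35 ± 0.36, adjusted p = 0.246). With length and GC offsets its log2 fold change was 0.082. Cdc25b, the phosphatase that activates Cdk1, had 179, 91.3 and 142 CPM in ConA+SIM, against 277, 203 and 384 CPM in ConA (-1.07 ± 0.34, adjusted p = 0.364). Foxm1, a transcription factor for Plk1, Ccnb1 and other mitotic genes, averaged 34.7 ± 9.15 CPM in ConA+SIM and 76.5 ± 38.7 CPM in ConA (-1.14 ± 0.54, adjusted p = 0.62). The groups overlapped in Foxm1, at 40.9, 24.2 and 38.9 CPM in ConA+SIM and 96.6, 31.9 and 101 CPM in ConA. Anapc1, the scaffold subunit of the anaphase-promoting complex, averaged 61.2 ± 23.7 CPM in ConA+SIM and 135 ± 34.0 CPM in ConA (-1.14 ± 0.41, adjusted p = 0.407).

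The list of condensation, passenger complex and cytokinesis genes had a median of -0.12 over 25 tested genes, with 9 higher, 16 lower and 0 called by edgeR or DESeq2. Its 8 condensin subunit genes were divided, 4 with higher and 4 with lower values in ConA+SIM and 0 called. Ncapd3 (-0.995 ± 0.36), Ncapd2 (-1.08 ± 0.43) and Ncaph (-0.90 ± 0.41) had the lowest log2 fold changes of the 8, with edgeR adjusted p-values of 0.414, 0.494 and 0.585, and the groups overlapped in Ncapd2. Smc4 was at -0.12 ± 0.18, and Smc2 (0.50), Ncapg (0.56), Ncapg2 (0.32) and Ncaph2 (0.36) had values above 0. Pttg1, which encodes securin, the protein that holds separase inactive until Cdc20 acts, had 59.7, 46.7 and 96.8 CPM in ConA+SIM, against 19.6, 15.4 and 42.1 CPM in ConA (1.40 ± 0.58, adjusted p = 0.527).

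The spindle and kinetochore list had a median of 0.18 over 40 tested genes, with 23 higher, 17 lower and 0 called by edgeR or DESeq2. That median was -0.15 without ConA+SIM replicate 3, -0.025 without ConA replicate 2, -0.15 with length and GC offsets and -0.051 with T cell marker scaling. Mad2l1, a spindle checkpoint protein that inhibits Cdc20, had 250, 166 and 304 CPM in ConA+SIM, against 143, 47.6 and 168 CPM in ConA (1.01 ± 0.45, adjusted p = 0.575). Nusap1, a spindle microtubule protein, averaged 253 ± 72.8 CPM in ConA+SIM and 168 ± 32.4 CPM in ConA (0.59 ± 0.30, adjusted p = 0.67), and the chromokinesin gene Kif22 averaged 49.1 ± 31.8 CPM in ConA+SIM and 106 ± 59.3 CPM in ConA (-1.12 ± 0.62, adjusted p = 0.737). Cenph, a centromere protein gene, had 49.1, 0 and 50.7 CPM in ConA+SIM, against 0, 0 and 2.64 CPM in ConA.

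The G1 list had a median of -0.10 over 24 tested genes, with 10 higher, 14 lower and 0 called by edgeR or DESeq2. Ccnd2, a D-type cyclin induced by growth signals in lymphocytes, had 166, 90.7 and 133 CPM in ConA+SIM, against 223, 223 and 196 CPM in ConA (-0.72 ± 0.29, adjusted p = 0.495). Its partner kinase gene Cdk6 averaged 16.2 ± 10.3 CPM in ConA+SIM and 51.4 ± 19.3 CPM in ConA (-1.67 ± 0.75, adjusted p = 0.575). Ccne1, the cyclin of S phase entry, averaged 69.5 ± 44.1 CPM in ConA+SIM and 36.1 ± 16.3 CPM in ConA, and E2f6, a repressive E2F gene, averaged 29.5 ± 10.5 CPM in ConA+SIM and 14.0 ± 3.09 CPM in ConA, with adjusted p-values of 0.834 and 0.99.

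The replication list had a median of -0.03 over 38 tested genes, with 19 higher and 19 lower, and that median ran from -0.39 without ConA replicate 2 to 0.098 without ConA replicate 3. DESeq2 called 3 of them, Pcna as higher and Mcm2 (adjusted p = 0.0268) and Dnmt1 (adjusted p = 0.0433) as lower. Among all genes DESeq2 called 3.35% higher and 1.86% lower. Beside Pcna, Gmnn, the geminin gene that blocks relicensing of origins, averaged 131 ± 45.9 CPM in ConA+SIM and 59.0 ± 14.3 CPM in ConA, without overlap (1.15 ± 0.39, adjusted p = 0.392). The helicase subunit gene Mcm2 had 103, 98.8 and 157 CPM in ConA+SIM, against 210, 174 and 327 CPM in ConA (-0.99 ± 0.33, adjusted p = 0.388). Dnmt1, the maintenance DNA methyltransferase, averaged 161 ± 12.6 CPM in ConA+SIM and 334 ± 171 CPM in ConA (-1.05 ± 0.40, adjusted p = 0.451). The groups overlapped in Dnmt1, at 175, 158 and 150 CPM in ConA+SIM and 444, 138 and 422 CPM in ConA. Each of the 5 lists thus held genes with higher and genes with lower values in ConA+SIM.

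**Figure D5:**
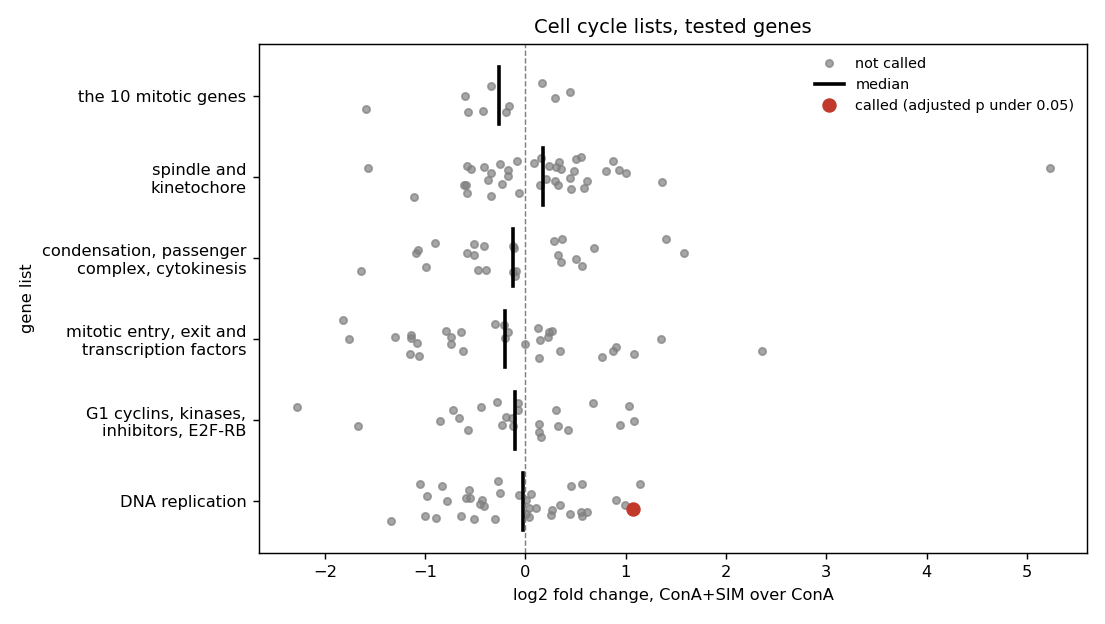
Log2 fold change of ConA+SIM over ConA for every tested gene of the 10 mitotic genes and the 5 further cell cycle lists, with a black line at each list's median. Pcna, in red, is the gene that passed the test, and the list medians lie between -0.26 and 0.18.

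Over the 168 members and list genes the log2 fold change had a Spearman correlation of -0.24 with transcript length, against -0.23 over the 10344 tested genes with a length. Within the 10 members it was 0.25. Plk1, with a transcript of 2199 nt, stood at -1.74 after the length trend was removed and at -1.40 with GC content as well. Several members have near copies in the genome: Ccnb1 matched 5 annotated pseudogenes at 94.4% to 99.2% identity over at least 383 nt, Plk1 matched Plk-ps1 at 93.5% over 1813 nt and Cdc20 matched Gm7856 at 93.7% over 1512 nt. The sources used here do not say how reads matching more than 1 place were treated, so the levels of these genes carry that uncertainty. Ccna2 shares 431 nt at its end with Exosc9 on the opposite strand, and the strand setting of the counting is not stated either. Cdc20 likewise overlaps Elovl1.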

How the data were processed

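Counts per gene were measured by RNA sequencing in 6 samples of sorted liver CD4+ T cells. The authors deposited raw counts, whole numbers per gene symbol; HISAT2 2.1.0 and GRCm38 were used per the submitters' processing notes, and the sources used here name no counting tool. Sample titles gave groups and replicate numbers, and 0 sample columns were left unused. Replicates differed by more than sampling noise, with a chi-square statistic of 138 to 287 times its degrees of freedom.

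Genes kept by filterByExpr were scaled with TMM and tested with the quasi-likelihood F test of edgeR 4.0.16 (R 4.3.3), ConA+SIM over ConA, with Benjamini-Hochberg adjustment over all tested genes and a threshold of 0.05. SE is the log2 fold change over the root of F, and 95% intervals use the fit's degrees of freedom. The common biological coefficient of variation was 1.12. A count of 0 allows up to 3 counts, 0.118 to 0.175 CPM, for counting error only. Alternatives used limma 3.58.1 and DESeq2 1.42.0 among others. The procedure was run on simulated counts, with pass limits set only at a spread well below that of these data.

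The members and lists were chosen with earlier results of these data known. Genes named are all members, up to 4 per cell cycle list with the smallest p among those with a mean of at least 10 CPM, any past the threshold, the 5 most like the members' mean pattern (log2 of CPM + 0.5), and cell type markers. Transcript lengths are from GENCODE M21, 1 transcript per gene; 98.4% of tested genes had one. Near copies were sought with blastn 2.17.0 at 90% identity over 200 nt or more.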

Additional observations from a re-analysis of the deposited data

How the results depend on the processing

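Of the 10 mitotic genes, 0 were called with all settings run but DESeq2, which called 1, Plk1. Mki67, Aurkb, Plk1 and Cdc20 kept their sign in all 21 alternatives, Aurkb at -0.88 to -0.27 and Cdc20 at -0.80 to -0.16, both ends without 1 ConA library. The sign of Ccna2 turned with T cell marker scaling (-0.068), limma-voom (-0.074), the replicate block (-0.082), length and GC offsets (-0.010) and the replicate block with length offsets (-0.061), that of Top2a with length offsets (0.11) and that of Ccnb1 with length and GC offsets (-0.036). With each library left out in turn, Top2a ran from -0.59 to 0.087, Ccna2 from -0.32 to 0.58, Ccnb1 from 0.031 to 0.73, Ccnb2 from -0.40 to 0.096, Cdk1 from -0.091 to 0.60 and Birc5 from -0.63 to 0.019. The cause of these turns was not tested. Scaling by T cell markers moved the median of all genes to -0.33, against -0.04, and Plk1 to -1.77.

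Over all genes 57 were called. The count was 540 with DESeq2 (347 higher, 193 lower), 115 with limma-voom, 114 with quality weights and 3 with the macrophage covariate. It was 0 with T cell marker scaling, a log2 fold change limit of 1, length offsets, length and GC offsets, ribosomal protein genes left out, the replicate block and the replicate block with length offsets, and 0 to 3 with 1 library left out. Deviations of same-numbered samples from their group means had correlations of 0.0088 to 0.033. Only for replicate 3 was the same-numbered sample the one with the highest correlation. Whether same-numbered samples shared a day or batch is not stated and cannot be read from these correlations. The 20 named genes of the other lists, whose alternatives were added after seeing the data, had 0 sign changes, and 6 of them were called in 1 or more alternatives. With length and GC offsets Pttg1 stood at 0.48, Gmnn at 0.54, Mcm2 at -0.51 and Dnmt1 at -0.44. Of 126 list medians under the alternatives 8 turned sign: the members' without ConA+SIM replicate 2 (0.053), 4 of the spindle list (lowest -0.15), that of entry and exit regulators without ConA+SIM replicate 2 (0.0011), that of G1 genes with length offsets (0.023) and that of replication genes without ConA replicate 3 (0.098). Without ConA+SIM replicate 2, Mki67 stood at -0.35.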
